A study of Mus musculus with 9 samples.

Results

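Intestinal chloride, sodium and bicarbonate transport was followed through 8 genes, *Cftr*, *Slc26a3*, *Slc26a6*, *Slc9a3*, *Slc12a2*, *Slc4a4*, *Gucy2c* and *Atp1b1*. They were chosen by name, and each had a row among the 46517 genes of the expression tables. All 9 cultures were 3D organoids grown from duodenal crypts of wild-type C57BL/6J mice, kept in Matrigel at 5% O2 and 5% CO2 in L-WRN conditioned medium with the ROCK inhibitor Y27632 and the TGF-beta receptor inhibitor SB431542. Single cells from passaged organoids received adenovirus at 50 particles per cell about 72 hours before RNA extraction. The groups were Ad-GFP (green fluorescent protein from the CMV promoter, the control), Ad-hHIF2 and Ad-hHIF1, with 3 samples each. Both HIF vectors carried a human HIF with proline-to-alanine substitutions that prevent its degradation, and every group, the control included, had been dissociated and infected. The authors describe 3 biological replicates per group for Ad-GFP and Ad-hHIF2. The labels do not say whether the samples of a group came from separate mice, so p-values measure the spread between these samples only.

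The small intestinal epithelium secretes chloride and bicarbonate and absorbs sodium, and water follows the salt. Chloride enters through the basolateral sodium-potassium-chloride cotransporter encoded by *Slc12a2* and leaves through the apical channel encoded by *Cftr*, while the sodium pump, of which *Atp1b1* encodes the beta 1 subunit, keeps the sodium gradient that drives entry. *Slc4a4* encodes the basolateral sodium-bicarbonate cotransporter that loads cells with bicarbonate, and *Slc26a3* and *Slc26a6* encode the apical exchangers that trade it for luminal chloride. *Slc9a3* encodes the apical sodium-proton exchanger of sodium absorption. *Gucy2c* encodes the guanylate cyclase receptor for guanylin and for the heat-stable enterotoxin of Escherichia coli, and its product cGMP opens the Cftr channel and inhibits sodium-proton exchange.

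Each sample held 21722618 to 51119041 expected counts, the reads that RSEM assigned to genes. Levels are given as CPM, the counts scaled to a common library size, after TMM normalization, a correction for differences in library composition. Reads of *Epas1*, the mouse gene for HIF2 alpha, averaged 671.7 CPM in Ad-hHIF2 and 1.77 CPM in Ad-GFP organoids, and those of *Hif1a* averaged 308.7 CPM in Ad-hHIF1 and 219.5 CPM in Ad-GFP organoids. The *Epas1* difference passed (adjusted p = 8.06e-08, edgeR) and the 1.41-fold *Hif1a* difference did not (adjusted p = 0.486, unadjusted p = 0.00148, edgeR). No gene passed in that HIF1 comparison, and each Ad-hHIF1 sample was above each Ad-GFP sample for *Hif1a*, where 17.4% of all genes did not overlap. The vectors carried human sequences, so these mouse gene counts hold an unknown part of the vector reads. The authors report HIF overexpression after adenoviral transfer by western blot and qRT-PCR. The library Ad-hHIF1 replicate 3 stood apart, with 15.96% of its counts in *Gm10800* and *Gm26870*, against 0.4333% to 4.279% in the other libraries. Ad-hHIF2 replicate 1 had a TMM factor of 1.31, against 0.907 to 1.03 in the others, and without it the log2 fold changes over Ad-GFP were 1.53 for *Slc4a4*, 0.33 for *Slc12a2* and -0.98 for *Atp1b1*, all with an adjusted p below 0.05 in edgeR. Of the epithelial markers, the keratins *Krt8*, *Krt18* and *Krt19* lay between 763.8 and 1357 CPM, whereas *Epcam* lay between 1.42 and 3.80 CPM and *Vil1* between 3.26 and 4.93 CPM. Of the 10 markers of mature enterocytes *Mttp* was at 2.95 to 5.08 CPM and *Anpep* at 0.549 to 2.21 CPM, *Apoa4* was at 2.22 to 2.80 CPM in Ad-hHIF2 samples and at most 0.0511 CPM in the others, and the remaining 7 reached at most 0.787 CPM. *Slc5a1* was at 0 in 7 and *Fabp1* at 0 in 8 of 9 samples. Also near 0 were the stem cell marker *Olfm4* (0 in 8 samples) and the Paneth cell marker *Defa24* (0 in all 9). The bulk libraries cannot tell fewer cells of a type from less RNA per cell.

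Of the 8 genes 3 were plainly expressed, 1 was low but measurable, and 4 were near 0 in every group. *Slc12a2* and *Slc4a4* were measured with at least 1425 counts per sample, *Atp1b1* with 146.3 to 366.3 and *Slc26a6* with 38 to 97, and these 4 passed edgeR's filter for low counts in all 3 comparisons. *Cftr*, *Slc26a3*, *Slc9a3* and *Gucy2c* had at most 16 counts in any sample. For Ad-hHIF2 against Ad-GFP, 3 of the 4 passed, meaning a Benjamini-Hochberg adjusted p under 0.05 in edgeR. *Slc4a4* and *Slc12a2* rose and *Atp1b1* fell. Of all 14987 genes in that comparison 29.5% passed, 15.9% higher and 13.6% lower. *Slc4a4* and *Atp1b1* also changed at least 2-fold, as did 6.73% of all genes tested. In Ad-hHIF1 organoids none of the 4 passed, where 0% of all genes did.

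**Figure D1:**
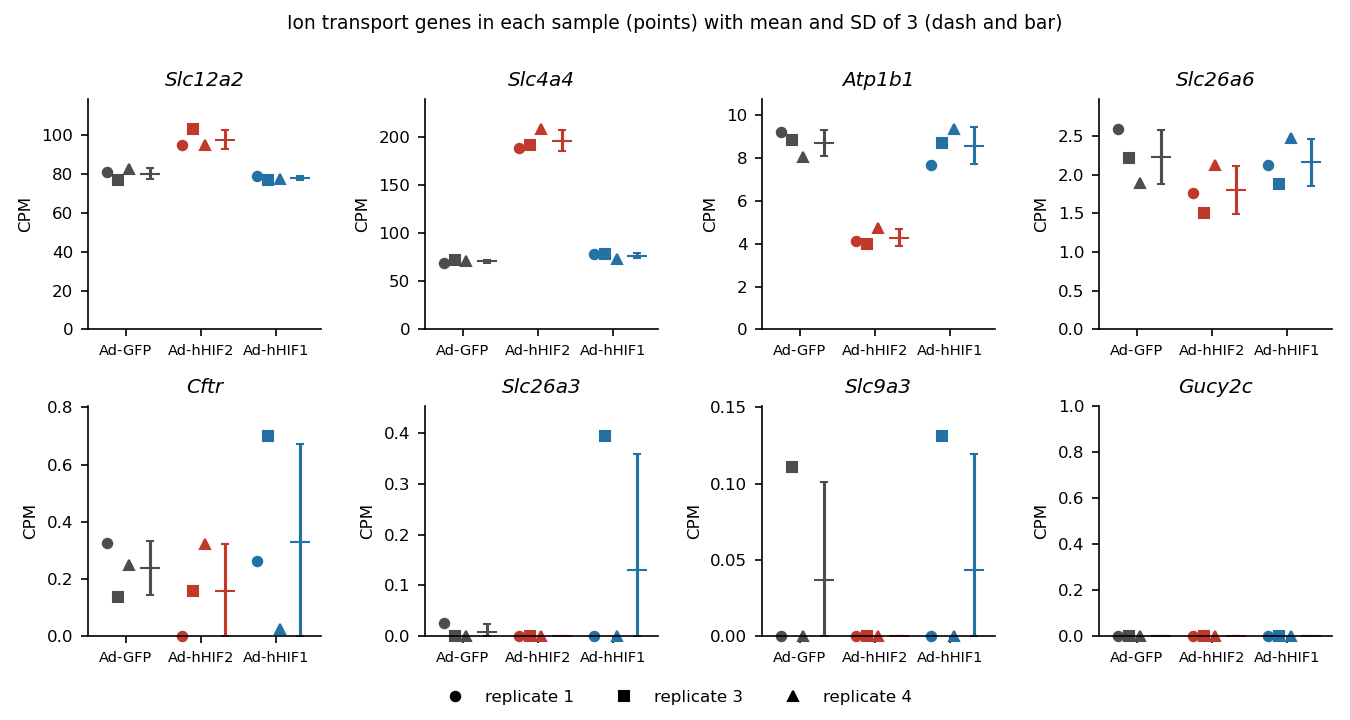
Level of each of the 8 genes in each sample, as TMM-scaled CPM on linear axes that start at 0 and differ between panels. Points are samples, and the dash and bar beside them are the mean and SD of 3 samples, with the bar ending at 0 where the SD is larger than the mean. The Ad-hHIF2 samples lie apart from the others for *Slc12a2*, *Slc4a4* and *Atp1b1*, *Gucy2c* is at 0 throughout, and the highest *Cftr*, *Slc26a3* and *Slc9a3* values are those of Ad-hHIF1 replicate 3.

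*Slc4a4*, the bicarbonate loader, lies on chromosome 5 of GRCm38 from 88886818 to 89239653 on the forward strand. It was at 68.6, 72.1 and 71.2 CPM in the Ad-GFP samples and at 188.1, 191.4 and 208.1 CPM in the Ad-hHIF2 samples. Every Ad-hHIF2 sample was above every Ad-GFP sample by more than 100 CPM, and the samples within each group lay close together. Its log2 fold change was 1.48 (SE 0.0769, 95% confidence interval 1.30 to 1.65), a 2.78-fold increase (adjusted p = 4.82e-06, edgeR). Leaving out any 1 sample kept this value between 1.44 and 1.53. On the authors' length-scaled TPM, *Slc4a4* was at 1.22, 1.41 and 1.25 in Ad-GFP and 6.67, 3.51 and 4.01 in Ad-hHIF2 samples, and it passed there too (adjusted p = 8.15e-05, limma on log2(TPM + 1)). The effective length that RSEM gave the gene averaged 6656 ± 122 bases in Ad-GFP, 7186 ± 192 in Ad-hHIF2 and 7010 ± 361 in Ad-hHIF1 samples (SD, n = 3), a value that depends on which transcripts received the reads. The TPM of Ad-hHIF2 replicate 1 was high for other genes too. In Ad-hHIF2 replicates 1, 3 and 4 *Slc12a2* was at 3.68, 2.18 and 2.07 TPM and *Krt8* at 169.7, 109.8 and 105.5 TPM. On CPM replicate 1 was not the highest of the Ad-hHIF2 samples for *Slc4a4*, *Slc12a2* or *Krt8*. Tests on TPM here and below include this difference in scale.

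*Slc12a2*, the chloride loader, lies on chromosome 18 from 57878678 to 57946821 on the forward strand. Its level was 80.8, 76.8 and 82.4 CPM in the Ad-GFP samples and 94.9, 103.1 and 94.9 CPM in the Ad-hHIF2 samples, so that the groups did not overlap. This was true of 45.8% of all genes tested. The increase was 1.22-fold, with a log2 fold change of 0.29 (SE 0.0745, 95% confidence interval 0.12 to 0.46, adjusted p = 0.0188, edgeR). The call was lost without Ad-GFP replicate 1, Ad-GFP replicate 3 or Ad-hHIF2 replicate 3 (adjusted p = 0.0512, 0.0768 and 0.0704, edgeR), although the direction was kept. On log2(TPM + 1) it did not pass either, at a log2 difference of 0.50 (adjusted p = 0.228, limma).

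*Atp1b1*, the pump subunit, lies on chromosome 1 from 164437109 to 164458355 on the reverse strand. It was at 9.20, 8.83 and 8.04 CPM in the Ad-GFP samples and at 4.14, 4.0 and 4.72 CPM in the Ad-hHIF2 samples, and each Ad-hHIF2 sample was below each Ad-GFP sample. The log2 fold change was -1.02 (SE 0.128, 95% confidence interval -1.31 to -0.73), which left 0.492 of the control level (adjusted p = 0.00062, edgeR). Leaving out each sample gave log2 fold changes from -1.09 to -0.97. On log2(TPM + 1) the difference was -0.27 and did not pass (adjusted p = 0.36, limma). With 0.1 added in place of 1 it was -0.65 and did not pass either (adjusted p = 0.261, limma). The *Atp1b1* TPM was 0.66, 0.76 and 0.87 in Ad-GFP and 0.65, 0.28 and 0.47 in Ad-hHIF2 samples. The 0.65 is that of Ad-hHIF2 replicate 1, whose TPM was high for other genes too. The effective length of *Atp1b1* ran from 1100 to 1920 bases between samples. Its annotated end shares 617 bases with *Nme7* on the opposite strand, and the sources used here do not state whether counting used strand. The value for *Nme7* itself was 0.27 on the log2 scale and did not pass (adjusted p = 0.206, edgeR).

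The promoters of *Slc4a4* and *Atp1b1* are shown because these were the genes of the 8 that changed at least 2-fold. The windows are the 250 bases before a RefSeq start site on GRCm38.p6, read 5′ to 3′ on the gene's strand. They were searched on both strands for the core HIF-binding letters ACGTG and GCGTG, and a match is printed in capitals. The *Atp1b1* window is chr1:164458356-164458605 on the reverse strand, and the *Slc4a4* window, before the downstream of its 2 RefSeq starts, is chr5:89027716-89027965 on the forward strand.
Atp1b1: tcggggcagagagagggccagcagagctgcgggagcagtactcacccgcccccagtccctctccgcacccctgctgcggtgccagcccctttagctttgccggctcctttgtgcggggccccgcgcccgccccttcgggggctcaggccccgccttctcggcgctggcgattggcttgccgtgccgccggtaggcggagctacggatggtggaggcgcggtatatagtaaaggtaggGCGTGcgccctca
Slc4a4 downstream start: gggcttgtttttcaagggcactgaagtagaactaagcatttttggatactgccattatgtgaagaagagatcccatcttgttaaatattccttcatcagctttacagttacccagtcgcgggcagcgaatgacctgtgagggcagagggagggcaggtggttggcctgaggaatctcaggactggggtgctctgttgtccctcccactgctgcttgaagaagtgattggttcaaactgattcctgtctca
The *Atp1b1* window held 1 match, GCGTG, whose first base lay 13 bases before the start. The downstream *Slc4a4* window held none of these letters, and the window before its upstream start, chr5:88887010-88887259, held 1 match on the opposite strand, 119 bases before the start. That upstream window lies inside an exon of a longer GENCODE transcript and is not printed. Which *Slc4a4* start was used in these organoids was not examined. A match occurred in 38.6% of the 32851 mouse promoter windows of this length, and binding was not measured here. Of the 8 genes, 6 had a promoter entry, and the *Cftr* and *Slc9a3* windows held 2 and 3 matches (in *Slc9a3* a pair of them overlapped), those of *Slc26a3* and *Slc26a6* none.

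*Slc26a6*, the apical anion exchanger on chromosome 9 from 108853283 to 108913049, was low but measurable. It was at 2.59, 2.22 and 1.90 CPM in the Ad-GFP samples, 1.76, 1.51 and 2.13 CPM in the Ad-hHIF2 samples and 2.12, 1.88 and 2.48 CPM in the Ad-hHIF1 samples. The ranges of the 3 groups overlapped. The log2 fold change of Ad-hHIF2 over Ad-GFP was -0.32 with a 95% confidence interval from -0.90 to 0.25 (adjusted p = 0.372, edgeR). A decrease to near the 2-fold mark, or a small increase, thus lay inside the interval.

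*Cftr*, on chromosome 6 from 18170687 to 18322768, had 12, 5 and 5 counts in the Ad-GFP samples, 0, 8 and 10 in the Ad-hHIF2 samples and 9, 16 and 1 in the Ad-hHIF1 samples. These counts were 0 to 0.70 CPM, and they scattered as widely within the groups as between them. An antisense gene, *Gm15592*, overlaps *Cftr* by 18913 bases, so that some of these few reads could belong to it. *Slc26a3*, on chromosome 12 from 31390871 to 31473917, had 1 count in Ad-GFP replicate 1, 9 in Ad-hHIF1 replicate 3 and 0 in the other libraries. *Slc9a3*, on chromosome 13 from 74121457 to 74169442, had 4 counts in Ad-GFP replicate 3, 3 in Ad-hHIF1 replicate 3 and 0 elsewhere. *Gucy2c*, on chromosome 6 from 136697284 to 136781765, had 0 counts in all 9 samples. A count of 0 allows up to 3 counts, or 0.0588 to 0.15 CPM depending on the library, and this limit covers counting error only. At this depth a decrease of *Slc26a3*, *Slc9a3* or *Gucy2c* was not detectable.

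Levels were compared between genes as CPM per kilobase of RSEM effective length. In Ad-GFP organoids *Slc12a2* was highest at 12.5 ± 0.451 CPM per kilobase, followed by *Slc4a4* at 10.6 ± 0.439, *Atp1b1* at 6.27 ± 0.932 and *Slc26a6* at 2.47 ± 0.832 (SD, n = 3). In Ad-hHIF2 organoids *Slc4a4* came first at 27.3 ± 1.45, ahead of *Slc12a2* at 15.3 ± 0.746, *Atp1b1* at 2.68 ± 0.638 and *Slc26a6* at 1.78 ± 0.201. In Ad-hHIF1 organoids the order was that of the control, with *Slc12a2* at 12.2, *Slc4a4* at 11.0, *Atp1b1* at 5.91 and *Slc26a6* at 1.49 CPM per kilobase. Neighbours among these 4 genes did not overlap in their sample ranges in any group. *Cftr* followed at 0.031 to 0.068 CPM per kilobase, and its range overlapped that of the next gene in each group. The effective length of *Slc26a6* varied from 694.6 to 2100 bases between samples.

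**Figure D2:**
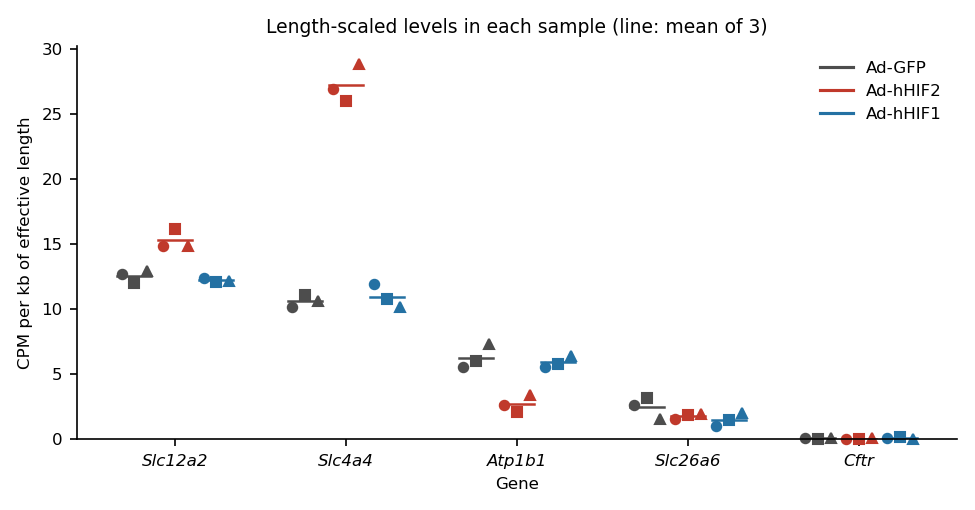
Levels of the 5 genes that reached a test in any comparison, as CPM per kilobase of effective length on a linear axis. Points are samples, with circles, squares and triangles for replicates 1, 3 and 4, and lines are means of 3. *Slc12a2* leads in Ad-GFP and Ad-hHIF1 organoids, *Slc4a4* leads in Ad-hHIF2 organoids at 27.3, and *Cftr* lies near 0.

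Ad-hHIF1 organoids were compared with Ad-GFP organoids by the same test. *Slc4a4* was at 78.6, 77.9 and 73.4 CPM, above all Ad-GFP samples, with a log2 fold change of 0.12 (95% confidence interval -0.04 to 0.27, adjusted p = 0.639, edgeR). Groups that did not overlap made up 17.4% of all genes in that comparison. *Slc12a2* was at 79.2, 76.9 and 77.5 CPM (log2 fold change -0.04, 95% confidence interval -0.19 to 0.12). *Atp1b1* was at 7.67, 8.70 and 9.35 CPM (-0.02, 95% confidence interval -0.32 to 0.28), and the value for *Slc26a6* was -0.05 (95% confidence interval -0.67 to 0.57). The signs of these last 3 values changed when counts were scaled by library totals alone, to 0.04, 0.06 and 0.04. None of the 4 had an unadjusted p below 0.05 in edgeR. Across all 15233 genes tested, 0% passed in edgeR, 1308 had an unadjusted p below 0.05, and DESeq2 and limma-voom called 144 and 5 genes, none of them among the 8.

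The HIF2 and HIF1 cultures were also compared directly, in a fit of all 9 samples that shares its HIF2 samples with the first comparison. Of 5 genes tested 3 passed, 2 higher and 1 lower, where 25.8% of all genes passed, 13.7% higher and 12.0% lower. The groups of these 3 did not overlap, as for 41.8% of all genes. *Slc4a4* was 2.56-fold higher under HIF2 (log2 fold change 1.35, SE 0.0701, adjusted p = 7.05e-07, edgeR). *Slc12a2* was higher by 0.33 on the log2 scale (95% confidence interval 0.18 to 0.47, adjusted p = 0.00479, edgeR), and this call held with each of the 6 HIF samples left out. *Atp1b1* was lower under HIF2, also by at least 2-fold, with a log2 fold change of -1.0 (95% confidence interval -1.29 to -0.72, adjusted p = 0.000318, edgeR), and 6.11% of all genes passed with at least 2-fold. The decrease was short of 2-fold with library totals as the scale (-0.83, and -0.77 against Ad-GFP), and with a sample left out it ran from -1.1 to -0.93. On log2(TPM + 1) the *Slc12a2* and *Atp1b1* differences did not pass (adjusted p = 0.265 and 0.247, limma). *Slc26a6* did not pass, at a log2 ratio of -0.27 (adjusted p = 0.475, edgeR). *Cftr* had one of -1.01 with an interval from -3.58 to 1.55 (adjusted p = 0.577, edgeR), and without Ad-hHIF1 replicate 3 it was 0.12.

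**Figure D3:**
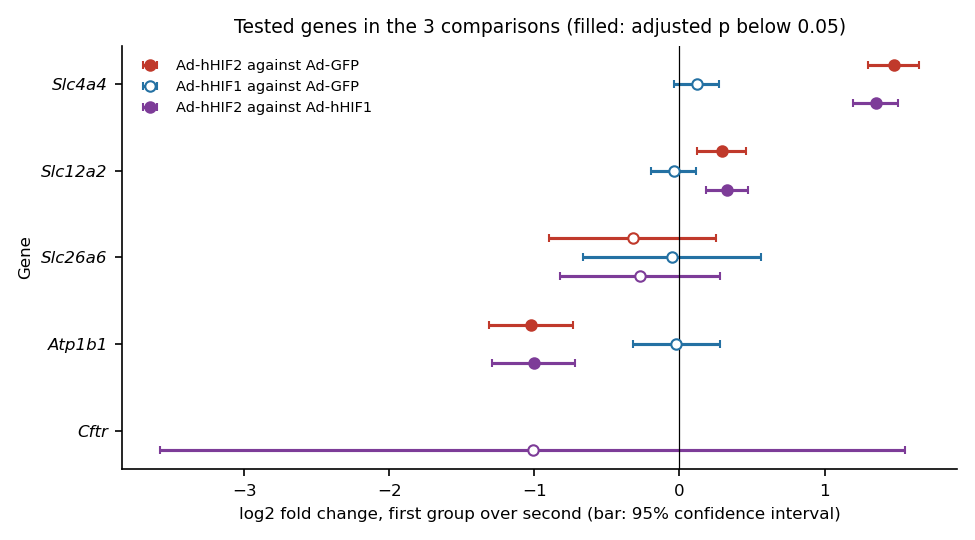
Log2 fold changes with 95% confidence intervals from edgeR for the genes that passed the low-count filter, in the 3 comparisons. Filled points had an adjusted p below 0.05. *Slc4a4* lies near 1.48 and 1.35 and *Atp1b1* near -1.02 and -1.0 in the comparisons that contain Ad-hHIF2, and the Ad-hHIF1 intervals against Ad-GFP all cross 0.

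Further genes of salt transport were taken from 11 lists, of which 125 of 128 genes were in the files. Between Ad-hHIF2 and Ad-GFP organoids 78 of them were tested and 34 passed, 17 higher and 17 lower. This was 43.6%, against 29.5% of all genes, and their median log2 fold change was -0.0011, against -0.012 over all genes. At least 2-fold changes were seen in 6, with 5 higher and 1 lower, or 7.69%, against 6.73% of all genes, where 435 were higher and 574 lower. When counts were scaled by library totals alone, the median gene shifted up by 0.257, all 17 higher genes still passed, and 3 of the 17 lower genes did. *Slc4a7* was the 1 gene whose sign changed, from -0.24 to 0.01. With each sample left out in turn, 19 of the 34 passed every time. Of the genes named below, *Prkaca*, *Prkar1a*, *Slc4a3*, *Slc4a7*, *Slc4a11*, *Slc12a4*, *Slc12a8*, *Clic1*, *Ano1*, *Stk39*, *Oxsr1* and *Kcnk6* lost the call in at least 1 of these 6 fits, with highest adjusted p-values from 0.052 for *Prkar1a* to 0.145 for *Slc4a7* (edgeR).

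**Figure D4:**
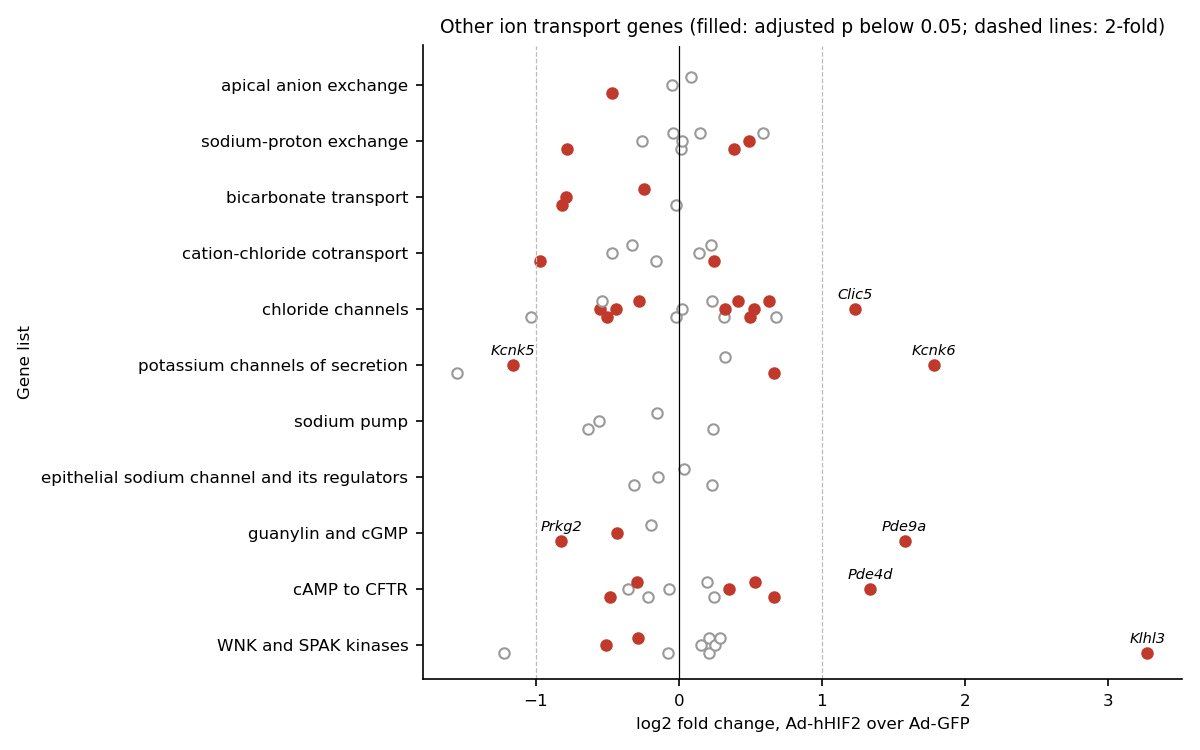
Log2 fold changes of Ad-hHIF2 over Ad-GFP for the 78 tested genes of the 11 lists, 1 row per list, with small vertical offsets to separate points. Filled points had an adjusted p below 0.05 in edgeR, dashed lines mark 2-fold, and gene names are given where a change reached 2-fold in any comparison. *Klhl3* lies farthest to the right at 3.28, and *Kcnk5*, at -1.16, is the filled point farthest to the left.

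Among the apical exchangers, 1 of 3 tested anion exchangers and 3 of 9 tested sodium-proton exchange genes passed. *Slc26a2*, a sulfate transporter and the most abundant of the first list, fell from 43.6 ± 3.73 to 31.5 ± 1.44 CPM (SD, n = 3). The next most abundant, *Slc26a11*, averaged 3.91 CPM in Ad-GFP and 4.15 CPM in Ad-hHIF2 organoids, with overlapping ranges. *Slc9a2*, the second apical sodium-proton exchanger of the gut, was at 31.4, 29.9 and 30.1 CPM in Ad-GFP and 17.3, 19.1 and 16.5 CPM in Ad-hHIF2 samples. Its groups were far apart, with a log2 fold change of -0.78 (SE 0.0796, adjusted p = 0.000203, edgeR). The exchanger cofactor *Chp1* rose by 0.49 and *Slc9a3r1*, a scaffold that binds the Slc9a3 and Cftr proteins, rose by 0.39 on the log2 scale. The scaffold was thus at 33.5 ± 2.71 and 43.8 ± 2.82 CPM (SD, n = 3) in cultures where its partners' own transcripts were close to 0.

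Of the other genes of the bicarbonate transport list, 3 of 4 tested passed and all 3 were lower, the opposite direction to *Slc4a4*. One of them, *Slc4a11*, belongs to this family by sequence but is known for carrying protons rather than bicarbonate. *Slc4a3* and *Slc4a11* had log2 fold changes of -0.79 and -0.82 at 4.07 and 4.41 CPM in Ad-GFP, and the sodium-bicarbonate cotransporter gene *Slc4a7* one of -0.24. With library totals alone as the scale none of these 3 passed. *Slc4a2*, the basolateral anion exchanger and the most abundant of the list, was at 67.8 CPM in Ad-GFP and 66.7 CPM in Ad-hHIF2 organoids (log2 fold change -0.02, adjusted p = 0.857, edgeR). Of 7 cation-chloride cotransport genes, *Slc12a4* rose by 0.24 and *Slc12a8* fell by 0.97, and *Slc12a7* had a value of -0.16 (adjusted p = 0.167, edgeR).

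Of the other sodium pump genes, 0 of 4 tested passed in edgeR, and none of the 4 had an unadjusted p below 0.05. *Atp1b3*, which encodes another beta subunit, was at 15.3, 16.7 and 11.0 CPM in Ad-GFP and 18.7, 17.0 and 15.5 CPM in Ad-hHIF2 samples, with overlapping groups (log2 fold change 0.24, adjusted p = 0.248, edgeR). *Fxyd5*, a modulator of the pump, gave a log2 ratio of -0.15 and did not pass (adjusted p = 0.684, edgeR).

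The chloride channel list, which had the most tested genes, also had the most calls, 10 of 17 or 58.8%, against 29.5% of all genes. Of these 6 were higher and 4 lower, the lower ones being *Ano1*, *Clcn3*, *Clca3a1* and *Clca3b*. Shares were larger in the bicarbonate transport and guanylin lists (75% each) and among the potassium channels (60%). *Clic5*, an intracellular chloride channel protein of the apical cytoskeleton, was at 5.52, 5.26 and 4.20 CPM in Ad-GFP and 12.5, 11.8 and 11.1 CPM in Ad-hHIF2 samples. It changed by 1.23 on the log2 scale (SE 0.126, adjusted p = 0.000208, edgeR), and the groups were separate. *Clic1*, the most abundant of the list, rose by 0.32. The calcium-activated chloride channel gene *Ano1* fell by 0.28 from 58.8 to 48.4 CPM, and *Ano6*, of the same family and a lipid scramblase, rose by 0.63 from 47.7 to 73.7 CPM. The endosomal exchanger gene *Clcn3* fell by 0.50 and the lysosomal *Clcn7* rose by 0.52, while *Lrrc8a*, which encodes the essential subunit of the volume-regulated anion channel, rose by 0.50. The *Ano1*, *Clcn3*, *Clca3a1* and *Clca3b* decreases did not pass with library totals as the scale, nor did those of *Abcc4*, *Slc26a2* and *Slc12a8*.

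Potassium channels hold the membrane voltage that drives chloride out of the cell, and 3 of 5 tested passed. *Kcnn4*, the basolateral calcium-activated channel, was at 22.2, 20.9 and 24.5 CPM in Ad-GFP and 35.6, 37.2 and 34.0 CPM in Ad-hHIF2 samples, a log2 fold change of 0.67 (SE 0.0825, adjusted p = 0.000585, edgeR). *Kcnk5*, a background channel of the basolateral membrane, moved the other way. It was at 7.05, 6.42 and 6.09 CPM in Ad-GFP and 3.11, 2.84 and 2.78 CPM in Ad-hHIF2 samples (log2 fold change -1.16, SE 0.146, adjusted p = 0.000631, edgeR). On log2(TPM + 1) the *Kcnk5* difference was -0.10 and did not pass (adjusted p = 0.326, limma). *Kcnk6* had a log2 fold change of 1.78 at 0.389 CPM in Ad-GFP and 1.25 CPM in Ad-hHIF2 organoids, and it passed in 1 of 6 fits with a sample left out.

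The ligands of the guanylin pathway, like its receptor, were at or near 0. *Guca2b*, which encodes uroguanylin, was at 0 in all 9 samples, and *Guca2a*, which encodes guanylin, was above 0 in 1 sample, at 0.0229 CPM. The intracellular steps were expressed, and 3 of 4 tested genes passed. *Prkg2*, the cGMP-dependent kinase that phosphorylates the Cftr channel, was at 70.7, 76.0 and 58.1 CPM in Ad-GFP and 37.5, 40.5 and 37.6 CPM in Ad-hHIF2 samples (log2 fold change -0.82, SE 0.101, adjusted p = 0.00055, edgeR). *Pde9a*, a phosphodiesterase that degrades cGMP, rose by 1.58 from 1.18 to 3.49 CPM, and *Abcc4*, an exporter of cyclic nucleotides, fell by 0.44 from 61.0 to 45.0 CPM. *Prkg2* was at 77.9, 86.8 and 77.2 CPM in Ad-hHIF1 samples, and the direct comparison of the HIF groups gave -1.07 (adjusted p = 4.15e-05, edgeR), which did not pass on log2(TPM + 1) (adjusted p = 0.154, limma).

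In the cAMP list 6 of 11 tested genes passed, 4 higher and 2 lower. *Pde4d*, a phosphodiesterase that degrades cAMP, was at 20.2, 18.3 and 22.8 CPM in Ad-GFP and 53.1, 49.9 and 51.4 CPM in Ad-hHIF2 samples. The Ad-hHIF1 samples, at 17.5, 18.9 and 20.0 CPM, were close to the control. The log2 fold change was 1.34 over Ad-GFP (SE 0.0902, adjusted p = 2.05e-05, edgeR) and 1.45 over Ad-hHIF1 (adjusted p = 2.41e-06, edgeR). *Prkar1a*, the regulatory subunit of protein kinase A, rose by 0.66 and *Prkaca*, a catalytic subunit, rose by 0.35. *Ezr*, the anchor of protein kinase A at the apical membrane and the most abundant of the list, was at 356.9 ± 27.2 and 306.6 ± 19.7 CPM (SD, n = 3) in Ad-GFP and Ad-hHIF2 organoids (log2 fold change -0.22, adjusted p = 0.104, edgeR).

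WNK kinases act through the kinases of *Stk39* and *Oxsr1*, which phosphorylate and switch on the cotransporter of *Slc12a2*, and 3 of 10 tested genes of this list passed. *Stk39* fell by 0.51 and *Oxsr1* fell by 0.29, neither of which passed with library totals as the scale. *Klhl3*, the adaptor through which the cullin 3 ubiquitin ligase degrades WNK kinases, was at 0.164, 0.0831 and 0.499 CPM in Ad-GFP and 1.83, 2.75 and 1.87 CPM in Ad-hHIF2 samples. It was low in both groups, which did not overlap, as for 45.8% of all genes tested. At these control levels it passed the low-count filter only through the Ad-hHIF2 samples. Its log2 fold change of 3.28 (SE 0.557, adjusted p = 0.00301, edgeR) thus rests on few control counts. The value was 4.1 without Ad-GFP replicate 4 and 2.81 without Ad-GFP replicate 3. In Ad-hHIF1 samples *Klhl3* was at 0.843, 0.568 and 0.767 CPM, between the other groups, and their log2 fold change relative to the control was 1.63 (adjusted p = 0.584, edgeR). With another test (EBSeq) on the same data, the authors list *Klhl3* among the genes upregulated by both HIFs. Ad-hHIF2 over Ad-hHIF1 gave 1.55 (adjusted p = 0.0411, edgeR), a call lost with any 1 of the 6 samples left out and with a replicate block (adjusted p = 0.0662). *Wnk1*, the most abundant kinase of the list, was just short of the threshold with a log2 ratio of 0.29 (adjusted p = 0.0542, edgeR), as was *Cul3* with 0.21 (adjusted p = 0.0627, edgeR). *Wnk3*, below 1.1 CPM in all samples, was lower under HIF2 than under HIF1 by a log2 ratio of -1.91 (adjusted p = 0.0207, edgeR), but it passed in 2 of 6 fits with a sample left out and not with a replicate block (adjusted p = 0.0531).

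The epithelial sodium channel and its regulators gave 0 of 4 tested genes in edgeR, and 1 of the 4 had an unadjusted p below 0.05. Its channel subunit *Scnn1a* averaged 0.145 CPM in Ad-GFP organoids. The regulators *Sgk1* and *Nr3c2*, the mineralocorticoid receptor, had log2 fold changes of -0.14 and 0.23 (adjusted p = 0.213 and 0.113, edgeR). Between Ad-hHIF1 and Ad-GFP organoids 0 of 81 tested list genes passed in edgeR and 8 had an unadjusted p below 0.05, against 0 and 1308 of all 15233 genes. Between Ad-hHIF2 and Ad-hHIF1 organoids 29 of 84 passed, 16 higher and 13 lower, which was 34.5% against 25.8% of all genes. With library totals alone as the scale, 13 of the 16 higher and 3 of the 13 lower genes still passed.

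Genes with the most similar pattern over the 9 samples were found by the root mean square difference of mean-centred log2(CPM + 1), among 15555 genes, a scale that shrinks the differences of genes at low CPM. For *Slc4a4* these were *Cdh17* (0.0841), *Glp1r* (0.085) and *Ctnnd1* (0.0894). *Glp1r* averaged 1.52 CPM in the control, 6.54 CPM under HIF2 and 1.78 CPM under HIF1, and its fitted log2 fold change over Ad-GFP, 2.10, was larger than that of *Slc4a4*. *Cdh17*, an intestinal cadherin, averaged 117.8 CPM in the control, 317.4 CPM under HIF2 and 122.0 CPM under HIF1. For *Atp1b1* they were *Gramd1b* (0.0636), *Pllp* (0.0739) and *Cks1b* (0.0749), and *Pllp* averaged 8.67, 4.33 and 8.90 CPM in the same order.

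Of 28 tested cell type markers 7 passed between Ad-hHIF2 and Ad-GFP organoids, or 25%, against 29.5% of all genes. The summed level of 3 duodenal transcription factor genes was 102.2 to 115.4 CPM in Ad-GFP, 159.3 to 172.1 CPM in Ad-hHIF2 and 108.6 to 120.5 CPM in Ad-hHIF1 samples, and *Gata4* and *Onecut2* rose by 0.59 and 0.60. The 5 goblet cell markers summed to 4.89 to 7.89, 1.61 to 2.26 and 3.58 to 4.20 CPM. Most of each sum was *Muc2*, which fell by 1.77, while *Tff3*, *Agr2*, *Spdef* and *Fcgbp* were too low to be tested. The 10 enterocyte markers summed to 4.25 to 8.14, 8.73 to 9.26 and 6.80 to 7.15 CPM, with *Apoa4* at 0.00923 and 2.49 CPM in Ad-GFP and Ad-hHIF2. Without *Apoa4*, a sum formed after the data were seen, they were at 4.25 to 8.14, 6.27 to 6.97 and 6.75 to 7.15 CPM, so that the groups overlapped. *Fabp2* was at 0.502 and 0.148 CPM in Ad-GFP and Ad-hHIF2 and did not pass (adjusted p = 0.0837, edgeR). The 7 epithelial markers summed to 3218 to 3533, 3406 to 3734 and 3302 to 3723 CPM, so that these ranges overlapped, while *Cdh1* rose by 0.53 and *Epcam* fell by 0.81. Sums over stem cell, Paneth cell, tuft cell and endothelial markers stayed at or below 2.98 CPM in every sample, and those over mesenchymal markers lay between 9.66 and 19.4 CPM. The 4 leukocyte markers summed to 9.18 to 15.2 CPM in Ad-GFP, 11.2 to 15.0 CPM in Ad-hHIF2 and 8.28 to 10.1 CPM in Ad-hHIF1 samples, nearly all of it *Cd68*. *Ptprc*, which encodes the leukocyte surface protein CD45, fell from 0.768 to 0.0425 CPM between Ad-GFP and Ad-hHIF2 organoids (adjusted p = 0.00472, edgeR), at 18 to 24 and 0 to 3 counts per sample. Enteroendocrine markers summed to 1.85 to 10.1 CPM except in Ad-hHIF1 replicate 3, at 40.1 CPM, where *Pax6* alone was at 39.8 CPM. Most of this sum was *Pax6* in every sample. Of the tested markers 2 of 3 duodenal, 1 of 5 enterocyte, 1 of 1 goblet cell, 1 of 2 leukocyte and 2 of 7 epithelial genes passed between Ad-hHIF2 and Ad-GFP. None of the 10 tested genes of the other marker lists passed in edgeR, and 4 of them had an unadjusted p below 0.05. Between Ad-hHIF2 and Ad-hHIF1 organoids 9 of 30 tested markers passed, or 30%, against 25.8% of all genes. The stem cell marker *Ascl2* was lower under HIF2 there (log2 fold change -4.49, adjusted p = 0.0316, edgeR), at 0 to 3 and 15 to 24 counts per sample. *Lgr5* and *Axin2* went the other way, at 2.02 and 1.31, and did not pass (adjusted p = 0.152 and 0.157, edgeR). The part of any of these in the results above was not tested.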

How the data were processed

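RNA from 9 duodenal organoid cultures had been sequenced. Transcripts had been quantified by the authors with RSEM after low-quality reads were discarded. The aligner, genome build, annotation and strandedness are not given in the sources used here. Per sample, the deposited tables hold expected counts (estimated reads per gene, not normalized), TPM and FPKM (both length-scaled by the authors with RSEM), and effective lengths in bases. TPM were used only in alternatives and to rank list genes by abundance, and FPKM were not used. Groups and the replicate numbers 1, 3 and 4 came from the labels.

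Expected counts were rounded, filtered with filterByExpr, TMM-normalized and tested with edgeR 4.0.16 (quasi-likelihood test, Benjamini-Hochberg adjustment over all genes tested, R 4.3.3). Comparisons with Ad-GFP used the 6 samples concerned, and the comparison of the HIF groups used all 9. A gene passed at an adjusted p below 0.05. Standard errors and 95% intervals came from the quasi-likelihood F statistic. Library totals of 21722618 to 51119041 counts put the floor of 3 counts at 0.0588 to 0.15 CPM. With 3 against 3 samples an exact permutation test cannot go below 0.10, so none was run. No pair of samples within a group agreed within sampling noise (pairs across groups were not compared).

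The 8 genes and all gene and marker lists were chosen with earlier results of these data known. Named are the 8 genes, list genes that passed with at least 2-fold in any comparison, the 2 most abundant genes of each list by TPM in Ad-GFP, and the 3 most similar genes of members changed at least 2-fold. Other list genes and all markers named were chosen after their values were seen. Some list genes are not reported here and are in none of the list counts. Positions are from GENCODE M21 (46005 identifiers matched), promoters from RefSeq.

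The test was repeated with DESeq2 1.42.0, limma-voom (limma 3.58.1) and limma on log2(TPM + 1) and log2(TPM + 0.1), with library totals alone or median-ratio factors as the scale, without a filter or with a minimum of 10 counts per sample, with other sets of samples, with a replicate block, and with each sample left out. On simulated counts with 200 changed genes the test recovered 66% of 2-fold and 93% of 4-fold changes in the design of Ad-hHIF2 against Ad-GFP (14716 genes), with 3.64% of its calls false. For Ad-hHIF1 against Ad-GFP (14752 genes) these values were 51%, 73% and 0.8%. In the measured counts of Ad-hHIF2 against Ad-GFP 4416 of 14987 genes passed, far more than 200. How edgeR performs with that many changed genes was not tested. Figures were drawn with matplotlib 3.10.9 in Python 3.11.15.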

Additional observations from a re-analysis of the deposited data

How the results depend on the processing

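For Ad-hHIF2 against Ad-GFP, the log2 fold changes of *Slc4a4* and *Atp1b1* kept their direction in every alternative, and *Slc4a4* passed in all of them. Limma on log2(TPM + 1) and log2(TPM + 0.1) left 1 of the 8 genes passing in each case, 6 and 7 list genes and 1010 and 1109 genes in all, where edgeR on counts gave 3, 34 and 4416. For Ad-hHIF2 against Ad-hHIF1 those scales left 1 of the 8 genes, 3 list genes in each case and 367 and 460 genes, where edgeR gave 3, 29 and 4008, and library totals alone left 17 list genes. The TPM scales and library totals alone moved the median gene by 0.257, 0.398 and 0.257 for Ad-hHIF2 against Ad-GFP and the share of higher genes among the calls from 53.9% to 80.6%, 81.1% and 80.8%. For Ad-hHIF2 against Ad-hHIF1 the shifts were 0.158, 0.239 and 0.181 and the share went from 53.3% to 85.8%, 82.8% and 72.3%. The cause was not tested. For Ad-hHIF1 against Ad-GFP, where edgeR called no gene, the fit without a count filter called 384 genes, 1 of them on a list, DESeq2 called 144, limma-voom 5 and the fit of all 9 samples 7. With each sample left out, Ad-hHIF2 against Ad-GFP gave 2 to 3 of the 8 genes and 22 to 37 list genes (22 without Ad-hHIF2 replicate 4), and Ad-hHIF2 against Ad-hHIF1 gave 2594 (without Ad-hHIF2 replicate 1) to 3624 genes in all.

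Among the 8 genes, signs changed only for values that had not passed. For Ad-hHIF2 against Ad-GFP, *Slc26a6* was 0.0172 on log2(TPM + 0.1). For Ad-hHIF1 against Ad-GFP, library totals alone gave 0.0368 for *Slc26a6*, 0.0419 for *Slc12a2* and 0.0594 for *Atp1b1*. There log2(TPM + 1) gave 0.0882 for *Slc12a2* and 0.0441 for *Atp1b1*, log2(TPM + 0.1) gave 0.135 and 0.0914, and leaving out each sample gave -0.17 to 0.0724 for *Slc26a6* and -0.0944 to 0.0549 for *Atp1b1*. For Ad-hHIF2 against Ad-hHIF1, *Slc26a6* was 0.108 and 0.395 on the TPM scales and *Cftr* ran from -1.92 to 0.12 with a sample left out. At 0 to 16 counts per sample, depth limits *Cftr*, *Slc26a3*, *Slc9a3* and *Gucy2c*.

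With the replicate block 3, 0 and 3 of the 8 genes passed in the 3 comparisons, as without it, and 4631, 0 and 3638 genes in all. Samples with the same number correlated at 0.0822, 0.101 and 0.25 (Ad-hHIF2 and Ad-GFP), 0.185, 0.0696 and -0.147 (Ad-hHIF1 and Ad-GFP) and -0.105, -0.131 and -0.272 (Ad-hHIF2 and Ad-hHIF1), and not every sample correlated best with its own number, so the numbers were not taken as pairs.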
